A study of Mus musculus with 4 samples.

Results

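The 10 genes described here are the 3 SoxC transcription factor genes Sox4, Sox11 and Sox12, and 7 genes that mark developing and projection neurons, Neurod1, Neurod2, Neurod6, Tbr1, Dcx, Bcl11a and Bcl11b. They were taken by gene name from a table of 28193 genes measured by fosTRAP-seq, which sequences the RNA bound to ribosomes of neurons that had expressed Fos in a tagging window. All 10 were found, and all 10 passed the filter of more than 5 counts in every library. The members were chosen by measured values of this same comparison, because Sox11 was among the genes with the clearest rise after sleep deprivation (SD), so their values are given as a description and no test of them is read.

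Male C57BL/6J mice aged 3 to 5 months were used. All were injected with 2 viral vectors, one carrying ERT2-Cre-ERT2 under the c-Fos promoter and one carrying a Cre-dependent, HA-tagged copy of the ribosomal protein Rpl22. All mice were sleep deprived for 5 h by gentle handling on day 0, with 4-hydroxytamoxifen given to switch on the tag in neurons active at that time. On day 7 mice of the SD group underwent another 5 h of it and those of the non-sleep deprived (NSD) group did not, so both groups carried neurons tagged by sleep loss and differed in the second session only. CA1 tissue was collected at ZT 5 and combined from 5 mice per library, and each group had n = 2 libraries, numbered by the batch in the labels. The labels name dorsal hippocampus of cFos-Cre:Ribotag mice, where the study's methods describe vectors and microdissected CA1. Every standard deviation (s.d.) below is a spread between pools of mice. The tag follows the c-Fos promoter and not a cell type, and RNA carried along with the beads is counted as well.

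The estimated counts summed to between 153511705 and 195910235 per library. Rpl22, which the tagged copy may add to, was at 628 and 1040 CPM (counts scaled to a common library total) in NSD libraries 1 and 2 and at 610 and 809 CPM in SD libraries 1 and 2. Fos was at 271 and 513 CPM in NSD and at 336 and 375 CPM in SD, so NSD library 2 was the highest for both genes and the groups overlapped for both. The summed level of 9 CA1 pyramidal neuron markers was 1660 to 1890 CPM, against 204 to 229 CPM for 10 dentate granule neuron markers and 35.0 to 38.0 CPM for 11 markers of adult neurogenesis. Astrocyte markers summed to 3090 to 3670 CPM and oligodendrocyte markers to 1640 to 1980 CPM, so the libraries also held glial RNA.

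SoxC proteins bind DNA through an HMG box and switch on genes of early neuronal differentiation, such as cytoskeletal genes of young neurons. NeuroD proteins are basic helix-loop-helix factors that drive and maintain the pyramidal and granule neuron fates, and they bind DNA together with E proteins such as Tcf4. Tbr1, Bcl11a and Bcl11b set the identity of projection neurons in the developing cortex, and Dcx encodes doublecortin, a microtubule-binding protein of migrating young neurons that is widely used as a marker of adult neurogenesis in the dentate gyrus. Several of these genes stay on in mature CA1 neurons.

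The DNA-binding parts of the 3 SoxC genes are shown first, because reads from near-identical coding sequence can be assigned to more than one of them. Each line is a stretch of 90 bases of the coding strand inside the HMG box, 5′ to 3′, from GENCODE transcripts of GRCm39, the build of the deposited table. Capitals mark the 14 positions at which the 3 genes are not all alike.
Sox4: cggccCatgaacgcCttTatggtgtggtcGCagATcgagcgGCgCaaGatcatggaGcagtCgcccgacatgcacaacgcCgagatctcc
Sox11: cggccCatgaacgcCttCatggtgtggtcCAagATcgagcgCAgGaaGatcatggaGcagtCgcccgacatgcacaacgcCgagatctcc
Sox12: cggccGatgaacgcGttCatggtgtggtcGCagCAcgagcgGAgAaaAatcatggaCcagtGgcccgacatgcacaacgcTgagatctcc
Sox4 and Sox11 matched at 84 of these 90 bases (93.3%), Sox4 and Sox12 at 79 (87.8%), and Sox11 and Sox12 at 78 (86.7%). The longest run of identical bases in the whole transcripts was 48 for Sox4 and Sox11, 33 for Sox4 and Sox12 and 20 for Sox11 and Sox12. The deposited counts of Sox4, Sox11, Neurod2 and Neurod6 were whole numbers in all 4 libraries, those of Bcl11b in 2, and those of Sox12, Neurod1, Tbr1, Dcx and Bcl11a in 0. The distance of Sox12 from a whole count was at most 0.13. How many reads were assigned between near-identical genes is not shown by these values.

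The stretches lie at chr13:29136735-29136824 for Sox4, chr12:27392168-27392257 for Sox11 and chr2:152239406-152239495 for Sox12, all on the minus strand in the only exon of the gene. Sox11 (ENSMUSG00000063632) spans 8311 bases, chr12:27384263-27392573, of which 1185 are coding and 6960 follow the coding sequence, so 85.7% of the transcript is noncoding. Sox4 (ENSMUSG00000076431) spans 4795 bases with 1320 coding, and Sox12 (ENSMUSG00000051817) 4453 bases with 942 coding. No annotated exon of another gene overlaps Sox11 or Sox12. Sox4 shares 907 exon bases with A330102I10Rik on the opposite strand, a noncoding gene at 1.42 to 1.85 CPM in these libraries, which is far below Sox4.

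The NeuroD and Bcl11 genes are printed in the same way, because they too resemble each other within each family and because their values are set side by side below. The NeuroD stretches lie in the basic helix-loop-helix region in exon 2 of 2, on the minus strand, at chr2:79284971-79285060 (Neurod1), chr11:98218689-98218778 (Neurod2) and chr6:55656246-55656335 (Neurod6). The Bcl11 stretches lie in zinc fingers, at chr11:24113856-24113945 on the plus strand in exon 4 of 4 of Bcl11a and at chr12:107882880-107882969 on the minus strand in exon 3 of 3 of Bcl11b. Capitals mark the 24 positions that vary among the NeuroD genes and the 12 that differ between the Bcl11 genes.
Neurod1: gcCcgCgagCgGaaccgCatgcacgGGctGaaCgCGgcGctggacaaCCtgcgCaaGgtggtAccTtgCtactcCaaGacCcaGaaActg
Neurod2: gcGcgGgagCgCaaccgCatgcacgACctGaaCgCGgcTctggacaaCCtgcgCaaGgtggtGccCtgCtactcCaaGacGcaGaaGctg
Neurod6: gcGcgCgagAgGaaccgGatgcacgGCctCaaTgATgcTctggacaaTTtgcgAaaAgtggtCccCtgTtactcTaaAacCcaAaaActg
Bcl11a: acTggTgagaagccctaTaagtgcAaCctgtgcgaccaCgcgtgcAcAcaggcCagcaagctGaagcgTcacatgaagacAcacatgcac
Bcl11b: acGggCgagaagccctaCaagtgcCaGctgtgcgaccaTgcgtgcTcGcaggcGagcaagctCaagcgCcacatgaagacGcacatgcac
Neurod1 and Neurod2 matched at 88.9% of these bases, Neurod2 and Neurod6 at 77.8%, and Bcl11a and Bcl11b at 86.7%. No pair shared a run longer than 26 bases over the whole transcripts. In the same annotation Neurod1 (ENSMUSG00000034701), Neurod2 (ENSMUSG00000038255) and Neurod6 (ENSMUSG00000037984) span chr2:79282865-79287294, chr11:98216241-98220480 and chr6:55654807-55658326. Bcl11a (ENSMUSG00000000861) spans chr11:24027941-24124123 and Bcl11b (ENSMUSG00000048251) chr12:107876656-107970417. The remaining genes are Tbr1 (ENSMUSG00000035033), with 6 exons at chr2:61633274-61644458 on the plus strand, and Dcx (ENSMUSG00000031285), with 7 exons at chrX:142638838-142716307 on the minus strand, whose transcript is 87.9% noncoding.

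Sox11 was the member with the largest difference between the groups. It was at 33.4 and 30.1 CPM in NSD libraries 1 and 2 and at 51.0 and 48.1 CPM in SD libraries 1 and 2. Both SD libraries were thus well above both NSD libraries, and the mean went from 31.8 ± 2.34 CPM (s.d., n = 2) to 49.5 ± 2.03 CPM, a 1.56-fold difference. The log2 fold change was 0.64 with a standard error (SE) of 0.0776, and it was 0.61 within batch 1 and 0.67 within batch 2. By this log2 fold change Sox11 ranked 442 of the 22338 genes tested. As this is bulk RNA, more RNA per cell and more cells carrying the RNA cannot be told apart here or for any gene below.

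The other SoxC genes did not show a difference of that size. Sox4 was at 29.4 and 31.7 CPM in NSD and at 33.4 and 34.2 CPM in SD, so the groups did not overlap, but the difference was small (log2 fold change 0.15, SE 0.0744). Sox12 was at 22.6 and 19.6 CPM in NSD and at 20.9 and 19.1 CPM in SD, with overlapping groups and a log2 fold change of -0.08 (SE 0.097). Ratios within a library do not depend on the scaling of libraries. Those with Sox11 restate the difference for which the genes were chosen and add no separate support. There were 1.14 and 0.951 Sox11 counts for each Sox4 count in NSD and 1.53 and 1.40 in SD, and 1.48 and 1.54 Sox11 counts for each Sox12 count in NSD and 2.44 and 2.51 in SD. The ratio of Sox4 to Sox12 overlapped between the groups, from 1.30 and 1.62 in NSD to 1.60 and 1.79 in SD. Expressed per kilobase of exon, Sox11 made up 26.4% and 24.8% of the SoxC level in NSD and 34.5% and 33.6% in SD, and Sox12 went from 33.3% and 30.1% to 26.4% and 24.9%. The Sox12 share falls when Sox11 is higher in the same sum, while the level of Sox12 itself overlapped between the groups. The share of Sox4 overlapped between the groups, at 40.2% and 45.2% in NSD and 39.2% and 41.5% in SD.

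**Figure D1:**
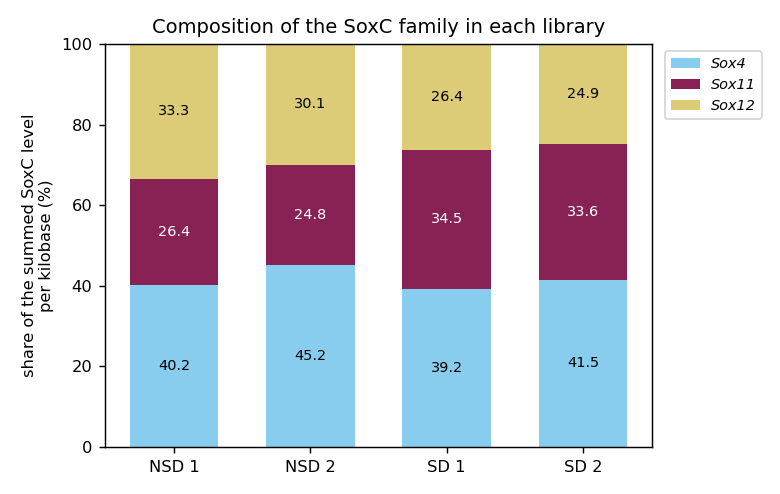
Share of each SoxC gene in the summed SoxC level per kilobase (%, vertical axis) in each of the 4 libraries (horizontal axis), each bar adding up to the whole family and each printed number being 1 library. The Sox11 part is 24.8% to 26.4% in the NSD libraries and 33.6% to 34.5% in the SD libraries.

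Of the NeuroD genes, Neurod6, a factor of mature hippocampal and cortical pyramidal neurons, showed the largest difference. It was at 123 and 152 CPM in NSD libraries 1 and 2 and at 103 and 113 CPM in SD libraries 1 and 2. The SD libraries were both lower, but the NSD libraries were further apart from each other than NSD library 1 was from SD library 2. The mean was 137 ± 20.7 CPM (s.d., n = 2) in NSD and 108 ± 7.42 CPM in SD, with a log2 fold change of -0.35 (SE 0.105), which was -0.26 within batch 1 and -0.43 within batch 2. It was not called in the test without the batch, and it was called lower with the batch number as a block (log2 fold change -0.34) and by DESeq2 (-0.33). Without NSD library 2 the log2 fold change was -0.19.

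Neurod2, which acts in the same neurons, was at 143 and 154 CPM in NSD and at 143 and 141 CPM in SD, a log2 fold change of -0.07 (SE 0.0719). Its value in batch 1 was the same in both groups after rounding, and the difference lay in batch 2. There were 0.856 and 0.985 Neurod6 counts for each Neurod2 count in NSD and 0.716 and 0.804 in SD, so this ratio was lower in both SD libraries. Neurod1, needed for the birth and survival of granule neurons, had the lowest CPM of the 10 genes, with 9.31 and 8.22 CPM in NSD and 8.45 and 9.11 CPM in SD. Its groups overlapped, and its log2 fold change was 0.00 (SE 0.117), with opposite signs in the batches (-0.14 and 0.15). Neurod6 shares 635 exon bases with the opposite-strand gene Gm3279 (0.0664 to 0.199 CPM), and Neurod1 shares 204 with Cerkl on the same strand (0.617 to 0.894 CPM). Gm54165, which overlaps Neurod1, and Gm33099 and Gm71805, which overlap Neurod2, were not analysed here.

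Tbr1, a T-box factor of deep-layer and hippocampal glutamatergic neurons, was at 81.8 and 78.7 CPM in NSD and at 85.7 and 88.4 CPM in SD. The groups did not overlap, and the log2 fold change was 0.12 (SE 0.0643), from a mean of 80.2 ± 2.20 CPM (s.d., n = 2) to 87.1 ± 1.89 CPM. Dcx was at 30.4 and 23.1 CPM in NSD and at 28.0 and 24.2 CPM in SD. Both groups had their higher value in batch 1 and overlapped fully, with a log2 fold change of -0.04 (SE 0.132).

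Bcl11a and Bcl11b are zinc finger proteins that are also subunits of the BAF chromatin remodelling complex. Their values are a description, and the difference between them was not tested. Bcl11a was at 173 and 182 CPM in NSD and at 148 and 155 CPM in SD, so both SD libraries were lower, with means of 178 ± 5.79 CPM (s.d., n = 2) and 152 ± 5.29 CPM. Its log2 fold change was -0.23 (SE 0.0722) and was -0.23 in each batch. It was not called by edgeR, with or without the block, or by DESeq2. With the block it passed the threshold on adjusted p and missed only that of 1.2-fold. Bcl11b was at 459 and 531 CPM in NSD and at 508 and 533 CPM in SD, with overlapping groups and a log2 fold change of 0.07 (SE 0.0982). Leaving out NSD library 1 gave 0.00 for Bcl11b, and leaving out NSD library 2 gave 0.18. Each Bcl11b count came with 0.378 and 0.342 Bcl11a counts in NSD and with 0.291 in both SD libraries. Bcl11a shares 353 exon bases with the opposite-strand gene 4930538E20Rik, which was at 0.157 to 0.391 CPM.

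**Figure D2:**
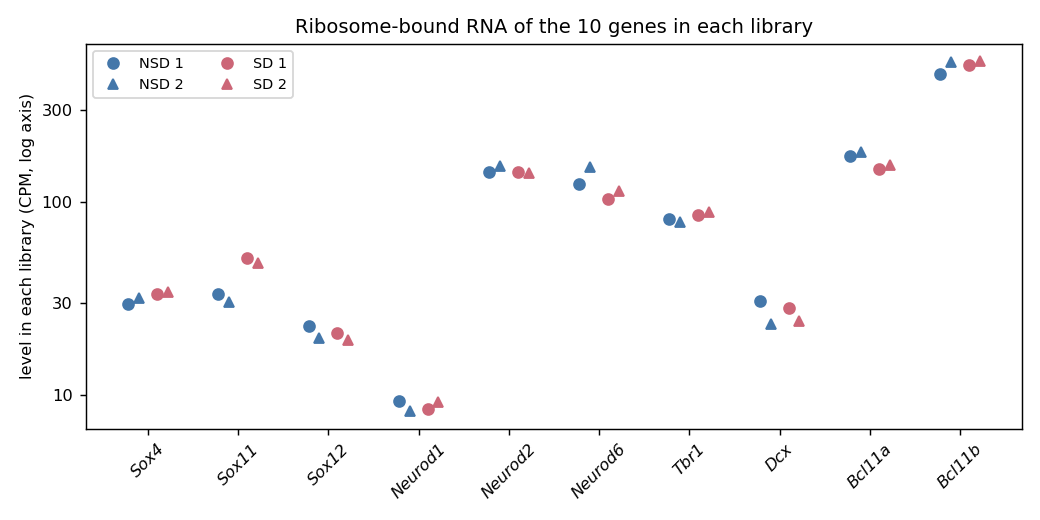
Level of the 10 genes (horizontal axis) in CPM on a log axis (vertical axis), with 1 point per library, circles for batch 1 and triangles for batch 2. Sox11 is at 48.1 and 51.0 CPM in SD against 30.1 and 33.4 CPM in NSD, while Neurod6 and Bcl11a lie lower in both SD libraries.

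**Figure D3:**
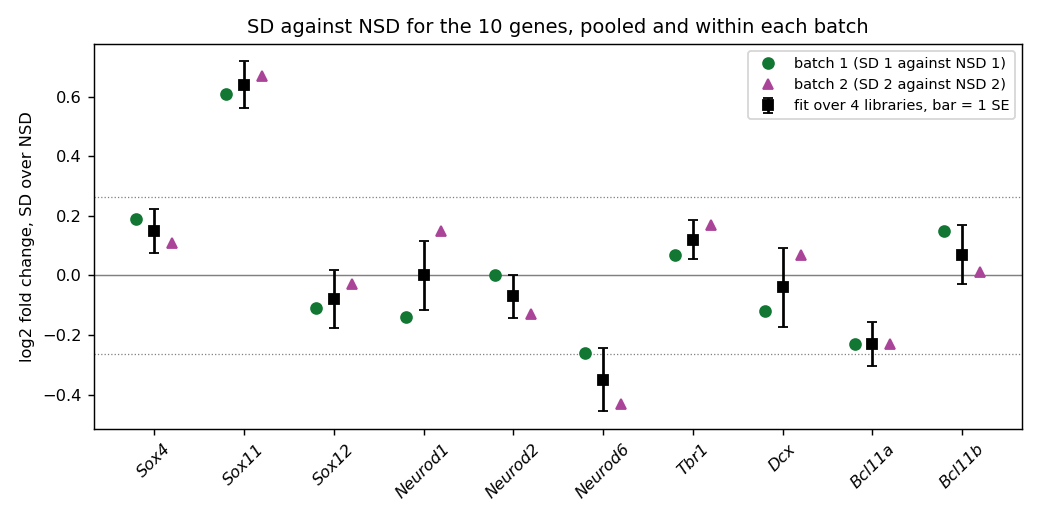
Log2 fold change of SD over NSD (vertical axis) for each of the 10 genes (horizontal axis), as squares with bars of 1 SE from the fit over 4 libraries, beside the value within batch 1 (circles) and batch 2 (triangles). Dotted lines mark the 1.2-fold threshold, and Sox11 (0.61 and 0.67) is beyond it on the upper side in both batches.

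Of the 10 genes, 1 was called higher (Sox11) and 0 lower by edgeR's quasi-likelihood test (adjusted p under 0.05, more than 1.2-fold in either direction), where 0.770% of all genes tested were called higher and 2.33% lower, and 0.952% and 0.540% of the protein-coding genes. With the block the count was 1 higher and 1 lower (3.77% and 3.29% of the protein-coding genes), and DESeq2 also gave 1 and 1 (3.91% and 1.79%). At an unadjusted p under 0.05 the count was 1 higher and 2 lower. Nothing is read from these counts, since Sox11 was the reason for the list. Both SD libraries were above both NSD libraries for 3 of the 10 (Sox4, Sox11, Tbr1) and below for 3 (Neurod2, Neurod6, Bcl11a), where the shares among protein-coding genes were 26.5% and 20.0%. The median log2 fold change of the 10 genes was -0.02, against 0.02 for all protein-coding genes tested. The 10 genes differed between the NSD libraries by a median of 0.16 on the log2 scale and between the SD libraries by 0.08, where 8710 protein-coding genes in the same range of CPM gave 0.10 and 0.07.

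Per kilobase of merged exon, the 10 genes ranged over more than an order of magnitude. Neurod6, at a mean of 55.0 ± 9.54 CPM per kilobase (s.d., n = 4), and Bcl11b, at 53.9 ± 3.68, had the highest levels, and their ranges over the 4 libraries overlapped. Each s.d. in this paragraph is over the libraries of both groups, so it also holds any difference between SD and NSD. Neurod2 (38.9 ± 1.63), Tbr1 (15.2 ± 0.784) and Bcl11a (12.3 ± 1.17) followed, each with a range clear of its neighbours. Sox4 (6.71 ± 0.448), Sox11 (4.89 ± 1.25) and Sox12 (4.61 ± 0.350) came next, with ranges that touched or overlapped from one to the next. Neurod1 (2.89 ± 0.172) and Dcx (2.09 ± 0.268) were lowest. Sox11 took rank 8, below Sox12, in both NSD libraries and rank 7, above Sox12, in both SD libraries, and Neurod6 went from rank 1 in both NSD libraries to rank 2, behind Bcl11b, in both SD libraries. With the length of the longest transcript in place of merged exons, Bcl11b was first at 58.6 CPM per kilobase, Bcl11a (26.5) was above Tbr1 (21.0), and the ranges of Dcx and Neurod1 overlapped.

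**Figure D4:**
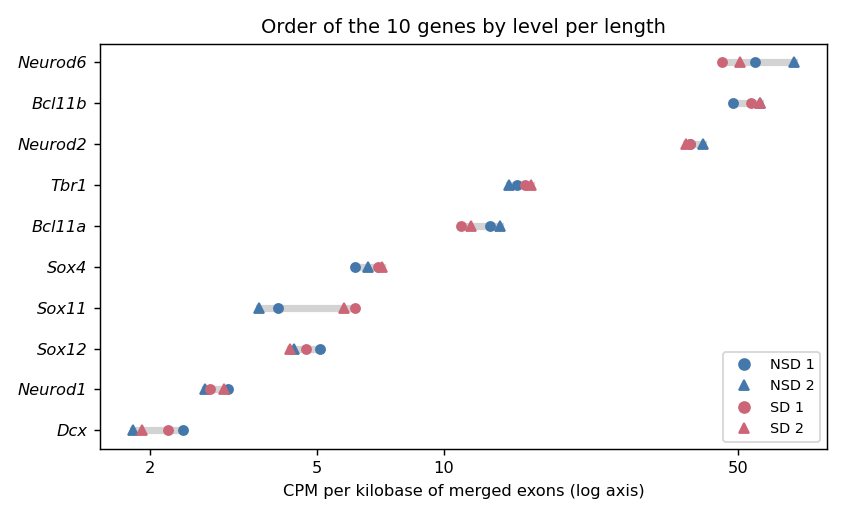
The 10 genes (vertical axis) in the order of their mean level, in CPM per kilobase of merged exons on a log axis (horizontal axis), with 1 point per library and a grey bar from the lowest to the highest. The range of Sox11, with its SD libraries on the right, reaches from Sox12 to Sox4.

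For each list below, the share among all protein-coding genes to set its count beside is 0.952% called higher and 0.540% lower without the block. It is 3.77% and 3.29% with the block, and 3.91% and 1.79% by DESeq2. No such share was taken at an unadjusted p, so nothing is read from those counts. Among 13 other Sox genes tested by edgeR, 2 rose and 0 fell (2 lower at an unadjusted p under 0.05 and 1 by DESeq2), with a median log2 fold change of -0.10 for the list. Over the libraries left out this median ran from -0.197 without SD library 1 and -0.180 without NSD library 2 to 0.001 without SD library 2 and 0.058 without NSD library 1. Sox5, a SoxD factor of projection neurons, was at 50.4 and 50.5 CPM in NSD and at 67.8 and 65.7 CPM in SD, a log2 fold change of 0.40 (SE 0.0641, adjusted p = 0.036 by edgeR's quasi-likelihood test, Benjamini-Hochberg adjusted, as for every adjusted p below). Sox8, a SoxE factor known from glia, was at 28.4 CPM in both NSD libraries and at 35.6 and 38.2 CPM in SD (0.38, SE 0.0734, adjusted p = 0.04). The call of Sox5 was kept without any single library, and that of Sox8 was lost without NSD library 1 (0.41), NSD library 2 (0.38) or SD library 2 (0.34). The remaining 11 did not pass the test, although the block called Sox17 and Sox18 lower, which are SoxF factors of endothelial cells. Sox17 was at 0.917 and 1.42 CPM in NSD and at 0.552 and 0.349 CPM in SD. Sox18 was at 1.84 and 1.86 CPM in NSD and at 1.17 and 0.941 CPM in SD.

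The bHLH partners and inhibitors of the NeuroD factors gave 0 calls in either direction among 20 genes tested, by edgeR with or without the block and by DESeq2 (1 higher and 0 lower at an unadjusted p under 0.05), and a median log2 fold change of 0.03. The largest differences above 1 CPM were in Hey2 (0.52, adjusted p = 0.217) and Id1 (-0.51, adjusted p = 0.463), which encode repressors of bHLH activity. Id1 was at -0.05 without NSD library 2, -0.84 without NSD library 1 and -0.29 without SD library 2.

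Of 39 other transcription factors of projection neurons, 1 rose and 1 fell by edgeR (6 higher and 3 lower at an unadjusted p under 0.05, and 2 and 2 by DESeq2). Tshz2, a zinc finger factor, was at 339 and 289 CPM in NSD and at 431 and 436 CPM in SD (log2 fold change 0.47, SE 0.0964, adjusted p = 0.0453). Zeb2, a zinc finger repressor, was at 523 and 528 CPM in NSD and at 406 and 394 CPM in SD (-0.39, SE 0.0814, adjusted p = 0.0454). The call of Tshz2 was lost without NSD library 2 (0.36), and that of Zeb2 without any single library (-0.36 to -0.42). The median of the list was 0.04, from -0.022 without NSD library 2 to 0.136 without NSD library 1. With the block 3 were called higher, Tshz2, Fezf2 (0.39) and Etv1 (0.55), and 2 lower, Zeb2 among them.

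The 34 immature neuron and microtubule genes, a group that includes known SoxC targets and relatives of Dcx, gave 0 calls in either direction by edgeR (4 higher and 2 lower at an unadjusted p under 0.05, and 2 and 0 by DESeq2) and a median of 0.05. St8sia2, a polysialyltransferase, had a log2 fold change of 0.29 (adjusted p = 0.482), and Tead2 had -0.29 (adjusted p = 0.690). Over the libraries left out St8sia2 ran from 0.11 (without SD library 1) to 0.50 (without NSD library 2), and Tead2 from -0.08 (without SD library 2) to -0.53 (without SD library 1). With the block 2 were called higher, Gap43 (72.2 and 76.0 CPM in NSD, 89.9 and 89.3 CPM in SD) and Dpysl3 (110 and 115 CPM in NSD, 134 and 137 CPM in SD), which both encode growth cone proteins.

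Of the 29 subunits of BAF complexes, 0 rose and 1 fell by edgeR (1 higher and 2 lower at an unadjusted p under 0.05, and 0 and 1 by DESeq2), with a median of 0.075 (0.018 without NSD library 2). The gene that fell was Brd9, at 53.0 and 52.8 CPM in NSD and 43.4 and 40.9 CPM in SD (-0.33, SE 0.0675, adjusted p = 0.0453). Its call was lost without NSD library 1 (-0.30), NSD library 2 (-0.33) or SD library 2 (-0.27). Smarcc1 (0.20, adjusted p = 0.151) and Dpf3 (0.21, adjusted p = 0.661) did not pass, and Dpf3 ran from 0.06 without NSD library 2 to 0.40 without NSD library 1.

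Some markers of cell types and regions in which the 10 genes are also used differed between the groups as well. Among 11 deep cortical layer and subiculum markers, 2 rose, Nts (7.76 and 11.0 CPM in NSD, 15.7 and 18.3 CPM in SD, adjusted p = 0.0397) and Hs3st4 (67.3 and 63.3 CPM in NSD, 81.7 and 82.2 CPM in SD, adjusted p = 0.0436), and 0 fell (5 higher and 0 lower at an unadjusted p under 0.05, and 4 and 0 by DESeq2). The call of Hs3st4 was lost without NSD library 2 (0.28). Their median log2 fold change was 0.145, their summed level was 437 and 457 CPM in NSD and 520 and 546 CPM in SD, 7 of the 11 were higher in both SD libraries (26.5% of protein-coding genes), and the block called 5 higher and 0 lower (3.77% and 3.29%). The median was 0.280 without NSD library 1. Fn1, the marker with the highest level in this list, had a log2 fold change of 0.14. The other 4 of the 11 overlapped between the groups, with log2 fold changes of -0.13 to 0.08. Sox11, Sox5 and Tshz2 were also higher in both SD libraries. So were 26.5% of protein-coding genes, and a link between these genes and the 7 markers was not tested.

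Among 9 CA1 markers, 0 passed edgeR's test in either direction (2 higher and 4 lower at an unadjusted p under 0.05, and 1 and 4 by DESeq2), and the block called 2 higher, Gpr161 (log2 fold change 0.49) and Dcn (0.33), and 4 lower, among them Wfs1 (-0.40), Fibcd1 (-0.34) and Man1a (-0.40). Wfs1 was at 390 and 441 CPM in NSD and at 279 and 355 CPM in SD, while Mpped1, the marker with the highest level, was at 437 and 454 CPM in NSD and at 481 and 504 CPM in SD. Without SD library 2 Wfs1 was at -0.56 on the log2 scale and was called lower, and without SD library 1 it was at -0.23. The median log2 fold change of the 9 was -0.18, which was 0.098 without NSD library 2, -0.057 without SD library 1 and -0.309 without SD library 2. The summed CA1 level, 1660 and 1890 CPM in NSD and 1680 and 1830 CPM in SD, overlapped between the groups. Of the 9 markers, 3 were higher and 4 lower in both SD libraries (26.5% and 20.0% of protein-coding genes). A link between these markers and Neurod6 or Bcl11a was not tested.

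The 10 dentate granule neuron markers gave 0 calls by edgeR (1 higher and 1 lower at an unadjusted p under 0.05, and likewise by DESeq2) and summed to 229 and 206 CPM in NSD and 204 and 209 CPM in SD. Prox1, their defining factor, was at 34.9 and 27.3 CPM in NSD and at 31.2 and 29.2 CPM in SD, with overlapping groups. Fam163b had a log2 fold change of 0.25 and Lct of -0.50, and neither passed without the block. With the block Lct was called lower (-0.52), the 1 call of this list, and DESeq2 called Fam163b higher (0.27) and Lct lower (-0.48). Without SD library 2 Lct was at -0.73 and was called, and without SD library 1 it was at -0.30. The 11 adult neurogenesis markers gave 0 calls among the 10 tested, by edgeR, by DESeq2 and at an unadjusted p under 0.05. They summed to 35.0 to 38.0 CPM per library, with Eomes at 0 to 0.0775 CPM and Igfbpl1 at no more than 0.115 CPM. Their most abundant member, Sox2, was at 11.3 to 12.9 CPM and had a log2 fold change of -0.09.

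Of the endothelial and mural markers, 11 of 14 were lower in both SD libraries (20.0% of protein-coding genes), with summed levels of 95.0 and 119 CPM in NSD and 82.8 and 61.2 CPM in SD. None of the 14 was called by edgeR without the block (0 higher and 0 lower, with Flt1 at -0.82 and Rgs5 at -0.26, and 8 lower at an unadjusted p under 0.05 and 4 by DESeq2), and the block called 7 lower (3.29% of protein-coding genes), Flt1 (-0.83) among them. Flt1 was also called without NSD library 1 (-1.01), SD library 1 (-1.12) or SD library 2 (-0.56), and Rgs5 without SD library 1 (-0.42). Rgs5 was at -0.15 without NSD library 2 and -0.11 without SD library 2. Sox17 and Sox18 were also lower in both SD libraries. So were 20.0% of protein-coding genes, and a link between them and the 11 markers was not tested. Interneuron markers (Gad1 at -0.03, Gad2 at -0.04), astrocyte markers (Slc1a2 at 0.16, Gfap at 0.06), oligodendrocyte markers (Mbp at -0.01), microglia markers (Csf1r at -0.02, Cx3cr1 at 0.04) and CA2 and CA3 markers (Nptx1 at -0.01, Rgs14 at -0.28) gave 0 calls by edgeR without the block. With the block 2 CA2 and CA3 markers, Rgs14 (-0.28) among them, and 1 interneuron marker were called lower, and 1 astrocyte and 1 oligodendrocyte marker higher. At an unadjusted p under 0.05 these lists held 1, 2, 1, 0 and 1 higher and 1, 0, 0, 0 and 2 lower in that order, and DESeq2 called 1 astrocyte and 1 oligodendrocyte marker higher.

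**Figure D5:**
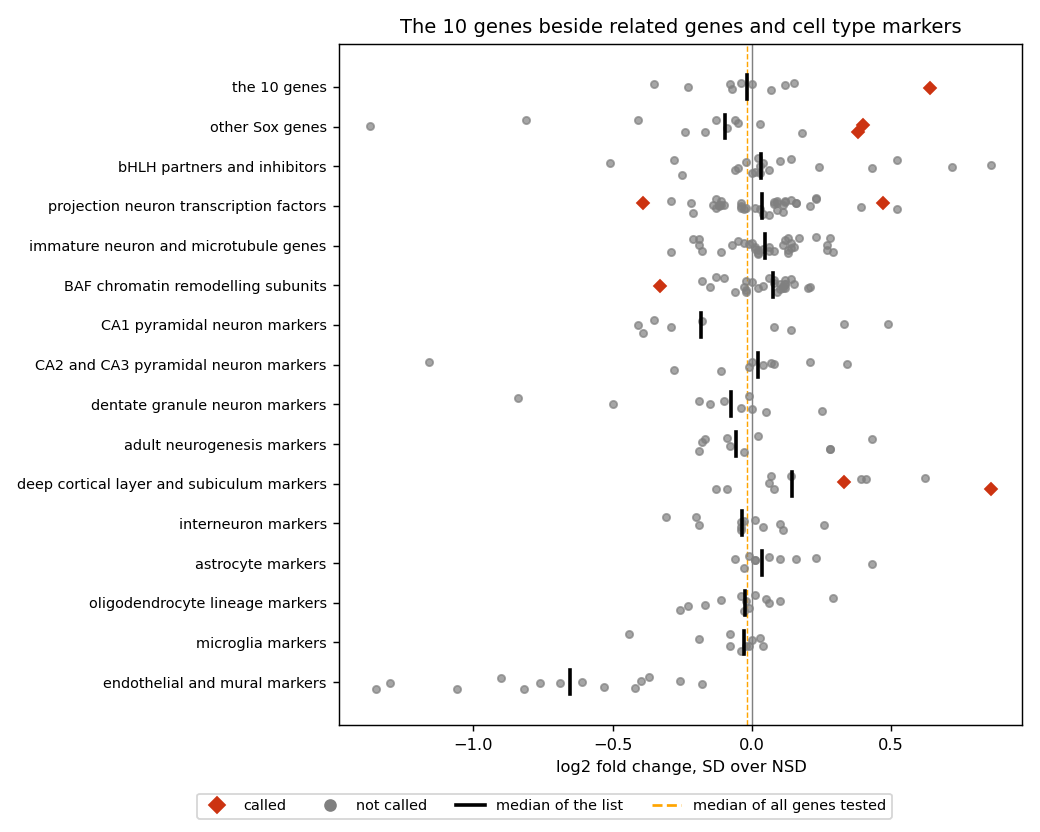
Log2 fold change of SD over NSD (horizontal axis) for the 10 genes and for each list of related genes or cell type markers (vertical axis), with 1 point per gene, diamonds for genes called without the block and a black bar at the median of the list. Sox11 is the only diamond among the 10 genes, and the endothelial and mural markers have the lowest median, -0.65.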

How the data were processed

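The deposited table holds estimated counts per gene, not normalized, for 4 libraries. Reads were trimmed by the authors, aligned with STAR and assigned to genes of mm39 by the expectation-maximization model of Partek. The library kit keeps strand, and whether the counting used it is not given in the sources used here. After rounding to whole numbers, the 22338 genes that exceeded 5 counts in each library were fitted with edgeR 4.0.16 in R 4.3.3 (TMM scaling, quasi-likelihood test, condition only, Benjamini-Hochberg adjustment over all genes). Calls followed the thresholds of the study, an adjusted p under 0.05 and more than 1.2-fold. DESeq2 1.42.0 was an alternative. The fits were first run on simulated counts with known fold changes, and the outcome is not reported here. CPM are TMM-scaled, and a prior count of 2 was added for log2 values of single libraries.

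The batch number in the labels equals the replicate number, so the numbers pair the libraries (correlation of deviations of same-numbered libraries 0.178). A fit with this block was an alternative, beside other scalings and filters, protein-coding genes only, no fold change threshold, and each library left out in turn. There were 153511705 to 195910235 counts per library, and having only 2 libraries per group limits the precision.

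The 10 genes and the lists were chosen with earlier results of these data known. The rule for genes named from a related list was those called and, where fewer than 2 were called, also the 2 largest differences with a mean of at least 1 CPM, and for markers the 2 highest in CPM and any called. Other marker and list genes (those called only with the block, Prox1, Eomes and Igfbpl1) were named after their values were seen, and results for some genes that the rule gives are not reported here. A comparison of protein sequences was planned and replaced by coding sequence of the GENCODE transcripts. The stretches are the 90 bases most alike within each family.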

Additional observations from a re-analysis of the deposited data

How the results depend on the processing

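With 2 libraries per group the spread is estimated from few samples, and leaving one out leaves a lone library that is assumed to vary like the others. Pools are not single mice, and the batch number, which pairs the libraries, cannot be traced to a step of the work. Over all genes, 172 were called higher and 520 lower; the replicate block gave 668 and 1891, DESeq2 669 and 1294, no count filter 50 and 80, filterByExpr 1 and 0 (838 and 2650 at an unadjusted p under 0.05 and over 1.2-fold), and protein-coding genes only 51 and 39. Leaving out each library gave 124 to 308 higher and 78 to 1955 lower, with the lowest count of lower calls without NSD library 1 and the highest without SD library 1. The share of calls that were higher was 24.9%, and 56.7% with protein-coding genes only, 61.4% without NSD library 1, 13.0% without SD library 1 and 38.5% with no count filter. Among the 10 genes, 1 was called higher and 0 lower; filterByExpr gave 0 higher, where Sox11 had a log2 fold change of 0.65 and Sox5, Sox8, Tshz2, Zeb2, Brd9, Nts and Hs3st4 were not called either, and the replicate block, DESeq2 and leaving out NSD library 1 or SD library 2 gave 1 lower, Neurod6 (0 to 1 over the libraries left out). The log2 fold change of Sox11 was 0.57 to 0.75 over the libraries left out. Among the genes of the related lists, 3 were called higher and 2 lower. The counts with the pairing as a block were 7 and 5, with DESeq2 6 and 4, with filterByExpr 0 and 0, with no count filter 1 and 0, with protein-coding genes only 1 and 0, and with DESeq2's size factors 1 lower, and over the libraries left out they were 2 to 5 higher and 0 to 2 lower. Small differences turned sign: Neurod1 was at -0.02 with protein-coding genes only, and over the libraries left out Neurod1 ran from -0.08 to 0.12, Sox12 from -0.18 to 0.06, Dcx from -0.22 to 0.21, Rpl22 from -0.53 to 0.18, Fos from -0.50 to 0.39, Sox2 from -0.20 to 0.01, Gad1 from -0.08 to 0.04, Gad2 from -0.11 to 0.04, Gfap from -0.09 to 0.21, Mbp from -0.15 to 0.17, Csf1r from -0.24 to 0.23, Cx3cr1 from -0.14 to 0.21 and Nptx1 from -0.03 to 0.02. With DESeq2, its size factors and no count filter, Nptx1 was at 0.01, 0.01 and 0.02, Mbp at 0.01 in each, and Csf1r at 0.00, 0.00 and 0.01. The block changed the call of no named gene other than those named as called with it. Over the libraries left out Neurod2 ran from -0.09 to -0.01, Slc1a2 from 0.06 to 0.30 and the median of the 10 genes from -0.050 to 0.092. The median of the bHLH genes ran from 0.011 to 0.072 and that of the immature neuron genes from 0.043 to 0.109. With no count filter or protein-coding genes only, Nts (0.89 and 0.84) and Hs3st4 (0.35 and 0.31) were not called. Sox8, Tshz2, Zeb2 and Brd9 were not called in either setting, while Sox11 and Sox5 were called in both.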
